A study of Mus musculus with 4 samples.

Results

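Melanocyte and pigment genes were followed in the prefrontal cortex of mice: Mitf, Mc1r, Tyr, Tyrp1, Dct, Mlana, Slc45a2, Slc24a5 and Oca2. These 9 genes were taken by the gene name that the array files give, out of 24787 genes that the files name and RefSeq lists, and all 19 of their non-control probes were read on all 4 arrays. Mlana, Dct and Tyrp1 were chosen because their signals differed between genotypes on these same arrays, so their genotype differences are given as a description with no test. The study crossed a diet with a genotype in B6J mice. The groups were wild-type mice fed starch, wild-type mice fed sucrose, Glo1 heterozygous mice fed starch and Glo1 heterozygous mice fed sucrose. Glo1 encodes glyoxalase 1, which detoxifies methylglyoxal. How its heterozygous allele was made is not given in the sources used here. All mice were 3 months old and had eaten their diet for about 70 days from postnatal day 21. RNA of 3 mice was pooled per group which was run on its own one-colour array (1 array per group). There are no replicates, so no difference between arrays carries an error over animals. The 4 arrays were on 1 slide, so the group and the position on the slide cannot be told apart.

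Melanocytes are neural crest derivatives that make melanin inside a lysosome-related organelle, the melanosome. The transcription factor MITF drives the lineage and binds E-box motifs in pigment genes. MC1R is the melanocortin receptor whose cAMP signal raises MITF. Tyrosinase (Tyr) carries out the rate-limiting oxidation of tyrosine, and dopachrome tautomerase (Dct) and TYRP1 act further along the path to dark eumelanin. MLANA is a melanosomal membrane protein, and SLC45A2, SLC24A5 and OCA2 are transport proteins needed for normal melanin content. In pigmented mice, melanocytes also lie in the leptomeninges, the thin membranes that cover the brain.

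The promoters of the 3 melanin enzyme genes are shown because they hold a shared E-box form in the 250 bases before the RefSeq transcript start. They are printed 5′ to 3′ on the strand of the gene, from RefSeq on build GRCm38.p6, with CATGTG or its reverse complement CACATG in capitals.
Tyr (chr7:87493513-87493762, minus strand): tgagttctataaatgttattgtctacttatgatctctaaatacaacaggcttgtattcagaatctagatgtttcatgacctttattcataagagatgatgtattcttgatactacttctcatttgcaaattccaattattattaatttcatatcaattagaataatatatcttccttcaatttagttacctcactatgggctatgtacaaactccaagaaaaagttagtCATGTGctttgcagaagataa
Tyrp1 (chr4:80833963-80834212, plus strand): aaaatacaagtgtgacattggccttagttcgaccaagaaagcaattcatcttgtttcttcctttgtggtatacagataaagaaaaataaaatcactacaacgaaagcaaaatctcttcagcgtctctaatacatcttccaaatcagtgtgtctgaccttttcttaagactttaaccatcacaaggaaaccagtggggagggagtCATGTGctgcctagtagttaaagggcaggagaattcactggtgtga
Dct (chr14:118052247-118052496, minus strand): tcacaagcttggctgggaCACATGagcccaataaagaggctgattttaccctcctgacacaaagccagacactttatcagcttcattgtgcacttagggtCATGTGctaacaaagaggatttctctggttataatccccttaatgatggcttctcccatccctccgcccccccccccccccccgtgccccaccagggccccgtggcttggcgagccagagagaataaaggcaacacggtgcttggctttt
Promoter windows of 300 bases, from 250 before to 50 after the start, were listed for 7 of the 9 genes, all but Mlana and Slc45a2. CATGTG, searched on both strands, was in the windows of 6 of these genes (Dct, Tyrp1, Tyr, Slc24a5, Oca2 and Mc1r). It was in those of 15.9% of all 27025 genes, and in 14.2% of all 32851 windows. The palindrome CACGTG was in none of the 7, in windows of 8.09% of all genes and in 7.15% of all windows. A longer form, TCATGTGCT, was searched after the enzyme promoters had been read. It contains CATGTG, and was in 134 of all windows (0.408%) and in windows of 0.414% of all genes. Among the members it was in those of Dct (first base at -151), Tyrp1 (first base at -47) and Tyr (first base at -22). A match is a description of the letters and shows no binding.

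**Figure D1:**
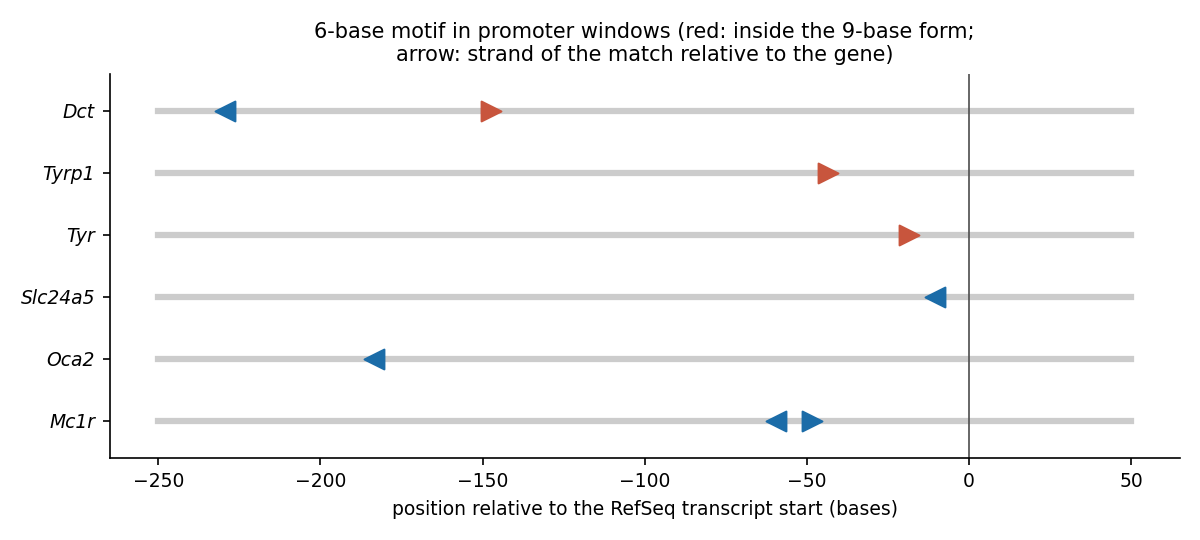
Positions of the 6-base motif CATGTG in the promoter windows of the 6 pigment genes that hold it, in bases from the RefSeq transcript start (x axis), with 1 line per gene; arrows point along the strand of the match, and red marks matches inside the 9-base form. Red matches are at -151 in Dct, -47 in Tyrp1 and -22 in Tyr, counted at the first base of the longer form.

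Several genes had more than 1 probe of 60 bases, and probes of 1 gene did not always move together. For Tyr and Tyrp1 a stretch of 30 bases of 2 probes each is shown, 5′ to 3′ as in the files. The Tyr pair is shown because its members differed between arrays, and the Tyrp1 pair because it shares a run of 18 bases, in capitals.
Tyr A_51_P102311: tactctgctacctagcatgtatatataaat
Tyr A_66_P135323: acgtaatcctggaaaccatgacaaagccaa
Tyrp1 A_55_P2740501: ctgggcATATGCTTATGAAGTTCActggcc
Tyrp1 A_55_P2739912: tctgggATATGCTTATGAAGTTCAacggcc
Both Dct probes belong to the same transcript in the files, at start positions 2186 (A_55_P1961466) and 971 (A_66_P128036). The Tyr probes A_51_P102311 and A_66_P135323 also share a transcript, at positions 2897 and 954.

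Levels are given as a percent of the array's 75th percentile of signal, a bright reference point set by each array's own probes. Levels of different probes are not comparable. Of the non-control spots, 77.6% to 80.2% were well above background on the 4 arrays. The 75th percentiles were between 1780 and 1929 intensity units. Of the 19 probes, 13 were well above background on all 4 arrays, 4 on some and 2 on none. As a yardstick, 2 spots of 1 probe on the same array differed with an SD of 0.23 (log2) at 30 to 100 intensity units, 0.15 at 100 to 300 and 0.12 at 300 to 1000, but 0.51 at 10 to 30 units. These bands held 13, 12, 24 and 66 readings in that order, each of 1 repeated probe on 1 array, and each SD comes from their median. Positive-control spots were allowed among them. The yardstick covers spots only, and not hybridisations, pools or animals. Glo1, read by its brightest probe, had levels of 404%, 553%, 274% and 304% in wild-type starch, wild-type sucrose, heterozygous starch and heterozygous sucrose mice, so both heterozygous arrays were below both wild-type arrays. All 7 cortical neuron markers used, among them Slc17a7, Neurod6 and Tbr1, were well above background on all 4 arrays.

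Mitf, the lineage's transcription factor, was measured by 4 probes on all arrays. None passed 2-fold in any comparison. The brightest (A_55_P2176838, mm9 chr6:97971229-97971288, plus strand) had levels of 145% in wild-type starch, 110.1% in wild-type sucrose, 161.1% in heterozygous starch and 145.5% in heterozygous sucrose mice. The heterozygous minus wild-type log2 difference of this probe was 0.15 on starch and 0.40 on sucrose. The probes A_55_P2152437 and A_51_P364274 were likewise lowest in wild-type sucrose mice, at 49.9% and 33.4%. The fourth probe, A_55_P2642571, had another order, with 8.25%, 11.0%, 12.2% and 13.04% in the same order of arrays, and was lowest in wild-type starch mice. All 4 probes had higher signals in heterozygous than in wild-type mice on both diets, with log2 differences from 0.14 to 0.57 on starch and from 0.24 to 0.42 on sucrose. Mitf is also expressed outside melanocytes, from several first exons, and the probes do not tell its sources apart.

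Mc1r, the melanocortin receptor, was close to background throughout. Its 1 probe (A_55_P2172096, chr8:125934583-125934642) had 0.74%, 0.58%, 0.58% and 0.93% in wild-type starch, wild-type sucrose, heterozygous starch and heterozygous sucrose mice, and was not well above background in heterozygous starch mice. On sucrose the genotype log2 difference was 0.69, at intensities of 17.9 against 11.0 units, where the spot spread was 0.51.

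Mlana, the melanosomal membrane protein, had the widest genotype difference on starch among the member probes measured on both arrays, and both its probes gave the same order of arrays. The brighter probe (A_55_P1953402, chr19:29782737-29782796, plus strand) had levels of 2.46% in wild-type starch mice and 2.69% in wild-type sucrose mice. It had 22.5% in heterozygous starch mice and 11.52% in heterozygous sucrose mice. Both heterozygous arrays were above both wild-type arrays. The heterozygous signal was 9.13 times the wild-type signal on starch (log2 3.19) and 4.28 times on sucrose (log2 2.10). The probe A_51_P499623, from the same chromosome stretch (chr19:29782839-29782898), had 1.91%, 1.97%, 23.2% and 11.1% in the same order. The wild-type arrays differed by a log2 value of 0.13 and 0.05 for the 2 probes, within the spot spread of 0.23. The heterozygous arrays differed beyond it, with a lower signal on sucrose by log2 values of -0.96 and -1.07.

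Dct, the dopachrome tautomerase gene, gave a like order with 1 of its 2 probes. The probe at transcript position 2186 (A_55_P1961466, chromosome 14, minus strand) had 12.4% in wild-type starch, 11.9% in wild-type sucrose, 95.4% in heterozygous starch and 48.2% in heterozygous sucrose mice. The heterozygous signal was 7.67 times the wild-type signal on starch (log2 2.94) and 4.04 times on sucrose (log2 2.01). The wild-type arrays differed by -0.06 with diet, within the spot spread of 0.15, and the heterozygous arrays by -0.98. The other probe, at position 971 (A_66_P128036, chr14:118442262-118442321), had 25.6%, 10.8%, 13.7% and 11.45% in the same order of arrays. It was highest in wild-type starch mice, and its genotype difference was -0.90 on starch and 0.08 on sucrose. The high Dct signal of the heterozygous arrays was therefore seen with the probe at position 2186 and not with the other.

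Tyrp1, like the Dct probe at position 2186, had higher signal in heterozygous mice on both diets. Its bright probe (A_55_P1953573, chr4:80497524-80497583, plus strand) had 4.18% in wild-type starch, 1.40% in wild-type sucrose, 15.3% in heterozygous starch and 7.77% in heterozygous sucrose mice. The genotype difference was 1.87 on starch (3.65-fold) and 2.47 on sucrose (5.55-fold). Unlike Mlana and Dct, its wild-type arrays differed with diet, by a log2 value of -1.58, and the signal of 26.7 units in wild-type sucrose mice lies where the spot spread was 0.51. The unmapped probe A_55_P2740501 was well above background in heterozygous starch mice only, at 0.85%, at least 1.30-fold above wild-type starch mice. Such a lower bound divides the bright signal by the dim one, or by the dimmest signal that counted as well above background on the dim array where that is larger. The probe A_55_P2739912 was well above background on no array.

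Tyr, the gene of the rate-limiting enzyme, was measured by probes that disagreed. The probe at position 954 (A_66_P135323, chr7:94632414-94632473, minus strand), the brightest by its mean, had 9.51%, 4.73%, 4.84% and 4.34% in wild-type starch, wild-type sucrose, heterozygous starch and heterozygous sucrose mice. It was highest in wild-type starch mice, and the other 3 arrays were alike within the spot spread of 0.23 for the pairs compared. Its genotype difference was -0.97 on starch and -0.13 on sucrose. The probe at position 2897 (A_51_P102311, chr7:94576265-94576324) was well above background in heterozygous starch mice only. Its intensity was 117 units there, and 2.59, 2.31 and 2.92 units in wild-type starch, wild-type sucrose and heterozygous sucrose mice. The heterozygous starch signal was at least 9.52-fold above wild-type starch and at least 9.27-fold above heterozygous sucrose mice. The third Tyr probe, A_55_P2744624, was well above background on no array.

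The transport proteins did not share 1 pattern. Slc45a2, a transporter of the melanosome membrane, was well above background in heterozygous starch mice only (A_66_P138922, chr15:10957993-10958052). Its levels were 0.16%, 0.48%, 1.71% and 0.62%, and the heterozygous starch signal was at least 2.62-fold above wild-type starch and at least 2.55-fold above heterozygous sucrose mice. Slc24a5, a cation exchanger, had 22.4%, 21.5%, 24.0% and 28.0% (A_52_P69020, chr2:124913773-124913832), and its genotype differences were 0.09 on starch and 0.38 on sucrose. Oca2, a melanosomal transport protein, was highest in heterozygous sucrose mice with both its probes. The brighter (A_51_P162144, chr7:63791667-63791726) had 4.14%, 5.50%, 5.14% and 13.4%, and the other (A_66_P118598, chr7:63678749-63684738, a span longer than the probe) had 2.37%, 2.94%, 1.87% and 5.46%. On starch the genotype difference was 0.31 and -0.34 for these probes, and on sucrose 1.29 and 0.89. In tissue RNA, more cells of a type and more RNA per cell cannot be told apart, here and for every gene below and above.

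**Figure D2:**
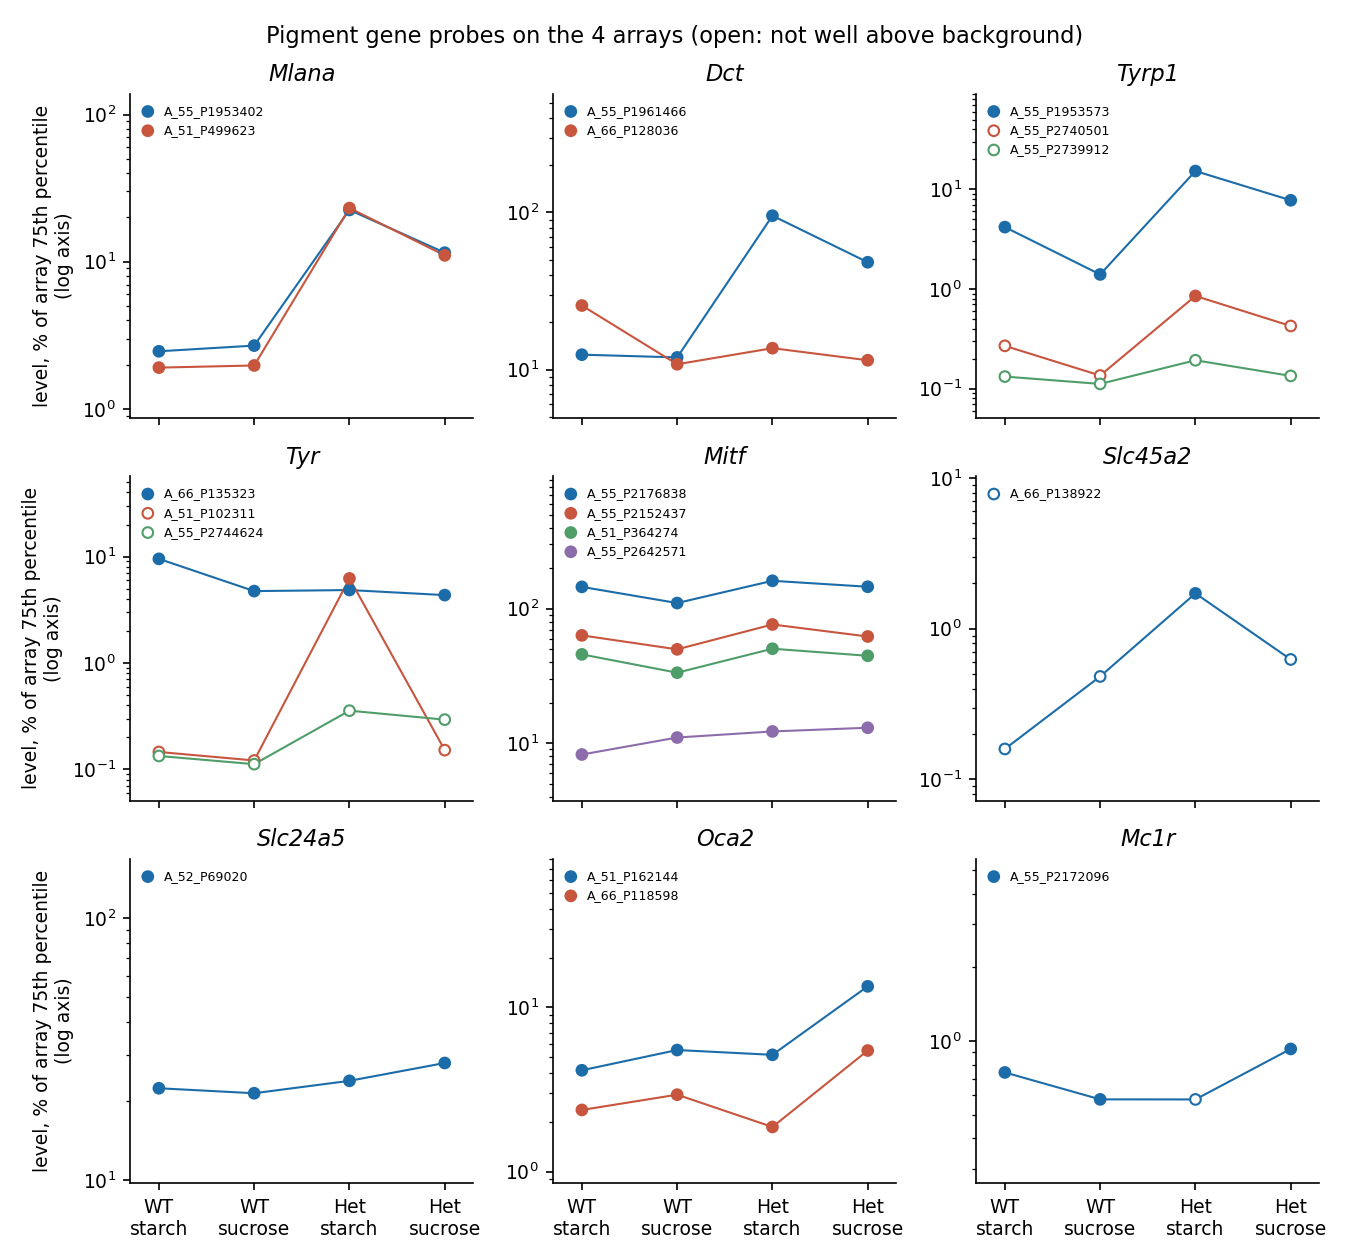
Level of each pigment gene probe on the 4 arrays as a percent of the array's 75th percentile (y axes, logarithmic, with a range of their own in each panel), 1 panel per gene and 1 line per probe; open points were not well above background. Both Mlana probes and 1 probe each of Dct and Tyrp1 are highest in heterozygous starch and next in heterozygous sucrose mice, and both Oca2 probes are highest in heterozygous sucrose mice.

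The genotype comparisons ask which transcripts differ between heterozygous and wild-type mice on 1 diet. On starch, 4 of the 13 member probes measured on both arrays were 2-fold or more higher in heterozygous mice (2 of Mlana, 1 each of Dct and Tyrp1), against 0.461% of 42558 probes on the array. None of the 13 was 2-fold lower, against 0.559%. On sucrose, 5 of 14 were higher, with Oca2 added to the same genes, against 1.23% of 43095 probes, and none was lower, against 0.404%. Since Mlana, Dct and Tyrp1 were chosen on these differences, nothing is read from the counts. Over the genes measured, each by its brightest probe, the median genotype difference was 0.31 on starch (7 genes) and 0.99 on sucrose (8 genes), and over all genes it was -0.02 on both diets. These medians leave out Slc45a2 on both diets and Mc1r on starch, which were not measured on both arrays.

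**Figure D3:**
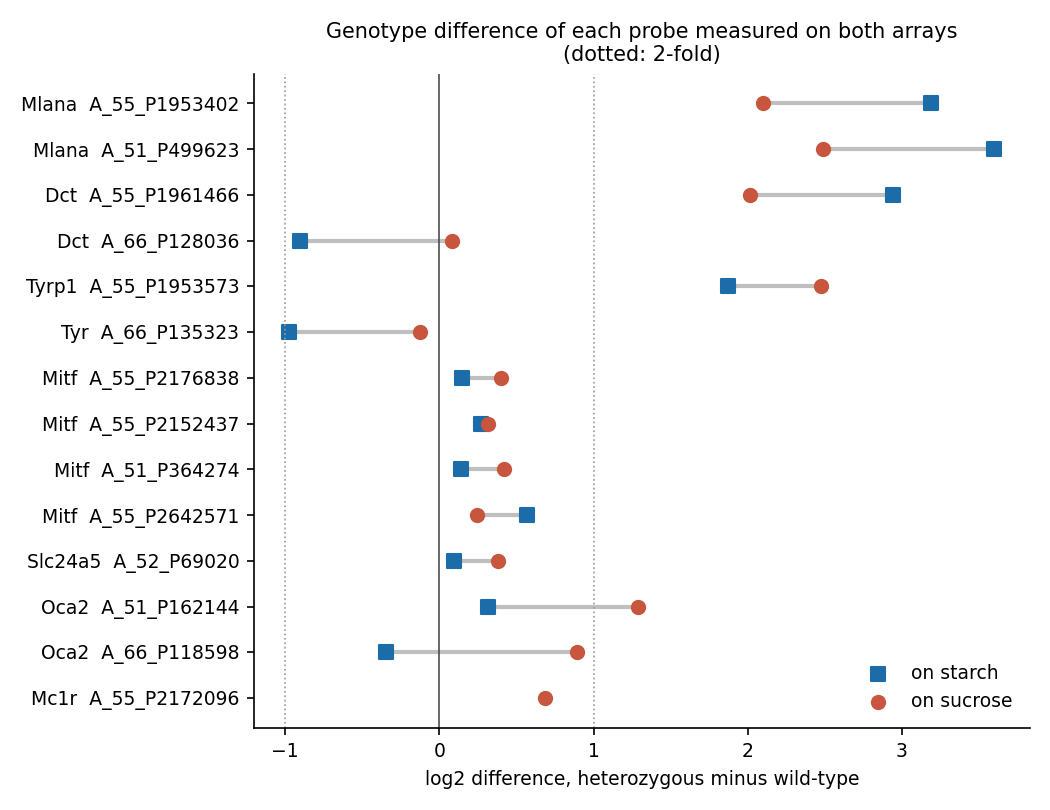
Log2 difference of heterozygous minus wild-type mice (x axis) for each probe well above background on both arrays compared, on starch (blue squares) and on sucrose (red circles), with dotted lines at 2-fold. Both Mlana probes and 1 probe each of Dct and Tyrp1 lie beyond 2-fold on both diets, Oca2 probe A_51_P162144 does on sucrose only, and all Mitf probes lie between 0 and 1.

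The diet comparisons ask what sucrose in place of starch does within 1 genotype. In wild-type mice 3 of 14 member probes were 2-fold or more lower on sucrose, 1 each of Dct (A_66_P128036, -1.24), Tyr (A_66_P135323, -1.01) and Tyrp1 (A_55_P1953573, -1.58), against 0.956% of 43320 probes. None was higher, against 0.568%. In heterozygous mice both Oca2 probes were higher on sucrose, by 1.39 and 1.55, out of 13 probes, against 1.04% of 42497 probes. Mlana probe A_51_P499623 was lower past 2-fold, against 0.497%. Mlana probe A_55_P1953402, Dct probe A_55_P1961466 and Tyrp1 probe A_55_P1953573 lay just short of 2-fold, at 51.2%, 50.5% and 50.9% of the signal of heterozygous starch mice. These values share the heterozygous starch array with the genotype comparison that chose the genes. The median diet difference over members was -0.21 in wild-type mice (8 genes) and -0.16 in heterozygous mice (7 genes), and over all genes it was 0.00 in both.

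The arrangement of both factors leaves 1 test, an additive limma fit of diet and genotype over 42094 probes, read for diet only because genotype chose the members. It has 1 residual degree of freedom and takes the interaction as error. It called 0 of the 13 member probes, and 0 of all probes (0%), at an adjusted p of 0.05. At an unadjusted p under 0.05 there were 3 member probes and 3704 probes in all. That count moved with the setting, to 9 member probes (4649 in all) with a trended prior and 11 (4410 in all) with normexp background correction. The lowest member value was that of Tyrp1 probe A_55_P1953573, of a gene chosen on these same arrays. In wild-type sucrose mice its signal was 26.7 units, where the spot spread was 0.51. This probe was lower on sucrose in wild-type as in heterozygous mice. Its log2 difference was -1.28, with an SE of 0.18 and a limma p of 0.00352 (adjusted p = 0.532). The other two were Oca2 probe A_51_P162144, at 0.90 (SE 0.28, limma adjusted p = 0.554), and Mitf probe A_55_P2152437, at -0.32 (SE 0.09, limma adjusted p = 0.543). The smallest adjusted p over the members lay between 0.051 and 0.814 across the alternatives of the fit, none of which called a member. Of all probes, the fit called 28 with normexp background correction and 1 with a trended prior.

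Heterozygous sucrose and wild-type starch mice differ in both factors. Of 14 probes, 5 were 2-fold or more higher in heterozygous sucrose mice (2 of Mlana, 2 of Oca2, 1 of Dct), against 1.23% of 42745 probes. The differences were 2.23 and 2.53 for Mlana, 1.70 and 1.20 for Oca2 and 1.96 for Dct. Dct probe A_66_P128036 and Tyr probe A_66_P135323 were lower, by -1.16 and -1.13, against 0.683%. The median over 8 member genes was 0.61. The interaction is the diet difference of heterozygous mice minus that of wild-type mice. It was 1 or more for 1 of 13 probes, Oca2 A_66_P118598 at 1.24, against 1.8% of 42094 probes. It was -1 or less for both Mlana probes, at -1.09 and -1.11, against 0.948%. With 1 array per group the interaction has no test. Mlana, Dct and Tyrp1 were chosen on genotype differences of these same arrays, so nothing is read from the counts of either comparison.

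Genes of the wider pigment machinery were read from lists of melanosome proteins, of organelle formation and transport, and of signals and transcription factors. Among 11 melanosome protein genes, Pmel, which forms the fibrils on which melanin is laid down, was 2-fold higher in heterozygous than wild-type mice on starch. Its levels were 3.43%, 3.26%, 7.25% and 5.21% in wild-type starch, wild-type sucrose, heterozygous starch and heterozygous sucrose mice, and its genotype difference was 1.08 on starch and 0.68 on sucrose. It was thus highest in heterozygous starch and next in heterozygous sucrose mice. Gpnmb, a relative of Pmel also expressed by phagocytes, was lowest in wild-type sucrose mice, with 8.29%, 3.13%, 7.49% and 6.01%. It was lower on sucrose by -1.41 in wild-type mice, and its interaction was 1.09. Tspan10, a tetraspanin, was not well above background in wild-type sucrose mice and had 1.21%, 1.504% and 0.95% on the other arrays. The list's median genotype difference was 0.13 on starch (11 genes) and 0.20 on sucrose (10 genes).

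None of the 22 genes of melanosome formation and transport, among them Myo5a, Rab27a and Mlph of the complex that carries melanosomes, passed 2-fold in any of the 5 pairwise comparisons. Their median genotype difference was 0.00 on starch and -0.02 on sucrose. None of 16 measured genes for receptors, ligands and transcription factors passed either, with medians of 0.06 and 0.03. In these comparisons 0.373% to 1.56% of all genes were higher and 0.394% to 1.05% lower by 2-fold or more. Sox10, which activates Mitf and is also expressed in oligodendrocytes, had 215%, 184%, 230% and 195%. Kit, the receptor melanocytes need to survive, had 112%, 128%, 124% and 191%, and Pax3 had 1.82%, 1.48%, 1.88% and 1.40%. Asip had no probe by that name, and Tfec was well above background on no array.

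Markers of other cell types that cortical samples can hold were read beside these genes, as the summed level of each list. The 11 measured meningeal fibroblast markers, such as Dcn, Col1a1 and Slc6a13 (the listed Crabp2 had no probe by that name), summed to 1161% in wild-type starch, 1174% in wild-type sucrose, 1295% in heterozygous starch and 1463% in heterozygous sucrose mice. None passed 2-fold. In the genotype difference 10 of 11 were above 0 on starch, against 8752 of 19312 of all genes. On sucrose 9 of 11 were, against 8782 of 19541. The medians were 0.18 and 0.08. The place of heterozygous sucrose above heterozygous starch mice in the sum rests on Dcn, with 278%, 269.5%, 295% and 519%. Without Dcn heterozygous starch mice would have the highest sum, and both heterozygous sums would still be above both wild-type sums. Between heterozygous sucrose and heterozygous starch mice, where Mlana, Dct and Tyrp1 differed, the median of the 11 was -0.02. There 5 were above 0, against 9700 of 19286 of all genes. Choroid plexus markers summed to 94.0%, 216%, 88.4% and 7050%. They were far highest in heterozygous sucrose mice, where Oca2 was highest. In heterozygous starch mice, where Mlana, Dct, Tyrp1, Slc45a2 and Pmel were highest, the sum was near that of wild-type starch mice. Ttr, at 25.9% in wild-type and 10.2% in heterozygous starch mice, accounts for more than the gap between those sums. On sucrose 9 of the 10 choroid plexus markers were 2-fold or more higher in heterozygous mice (median 4.17), against 1.56% of all genes. On starch Clic6 was higher (1.23), against 0.373%, and Ttr (-1.35) and Folr1 (-1.12) were lower, against 0.466%. The median of 9 on starch was 0.00. The part of these cells in the levels of the pigment genes, Oca2 among them, was not tested.

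Of 8 retinal pigment epithelium markers, which include Pmel, Lrat was well above background on no array. Pmel was 2-fold or more higher in heterozygous mice on starch (1.08), against 0.373% of all genes. On sucrose Rdh5 (1.64) and Otx2 (3.67), the latter also a choroid plexus marker, were higher, against 1.56%. Rpe65 was lower there (-1.12), against 0.394%. Their sums were 210%, 182%, 207% and 387%. The gap of the last rests mainly on Rdh5 and Otx2. Schwann cell markers summed to 423%, 289%, 480% and 290%, lower on both sucrose arrays mainly through Egr2, with 172%, 69.5%, 215% and 63.3%. In wild-type mice Foxd3 (-1.73) and Egr2 (-1.30) were 2-fold or more lower on sucrose, against 1.05% of all genes. Egr2 was also lower on sucrose in heterozygous mice (-1.76), against 0.487%. It was lower in heterozygous sucrose than wild-type starch mice (-1.44), against 0.623%. Foxd3 was higher in heterozygous than wild-type mice on sucrose (1.17), against 1.56%. Foxd3, a neural crest transcription factor, had 2.25%, 0.68%, 2.36% and 1.52%. Its signal of 12.88 units in wild-type sucrose mice, on which both its differences rest, lies where the spot spread was 0.51. Pmp2 was well above background on no array. Oligodendrocyte markers (9373%, 8452%, 9383% and 8740%) and cortical neuron markers (15090%, 17100%, 16610% and 16380%) had no member past 2-fold. Skin keratinocyte markers summed to between 978% and 1051%. Trp63, at 580% to 638%, makes up most of that sum, and Krt5 had 3.93% to 5.74%. Among those measured on both arrays, Dsp alone passed 2-fold. It was higher in heterozygous sucrose than in wild-type sucrose (4.14) and heterozygous starch mice (4.52), against 1.56% and 1.35% of all genes. Krt15 was well above background in heterozygous sucrose mice only, at 2.53%. It had 0.24%, 0.21% and 0.33% in wild-type starch, wild-type sucrose and heterozygous starch mice. Whether any of these cell types moved the pigment genes was not tested.

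**Figure D4:**
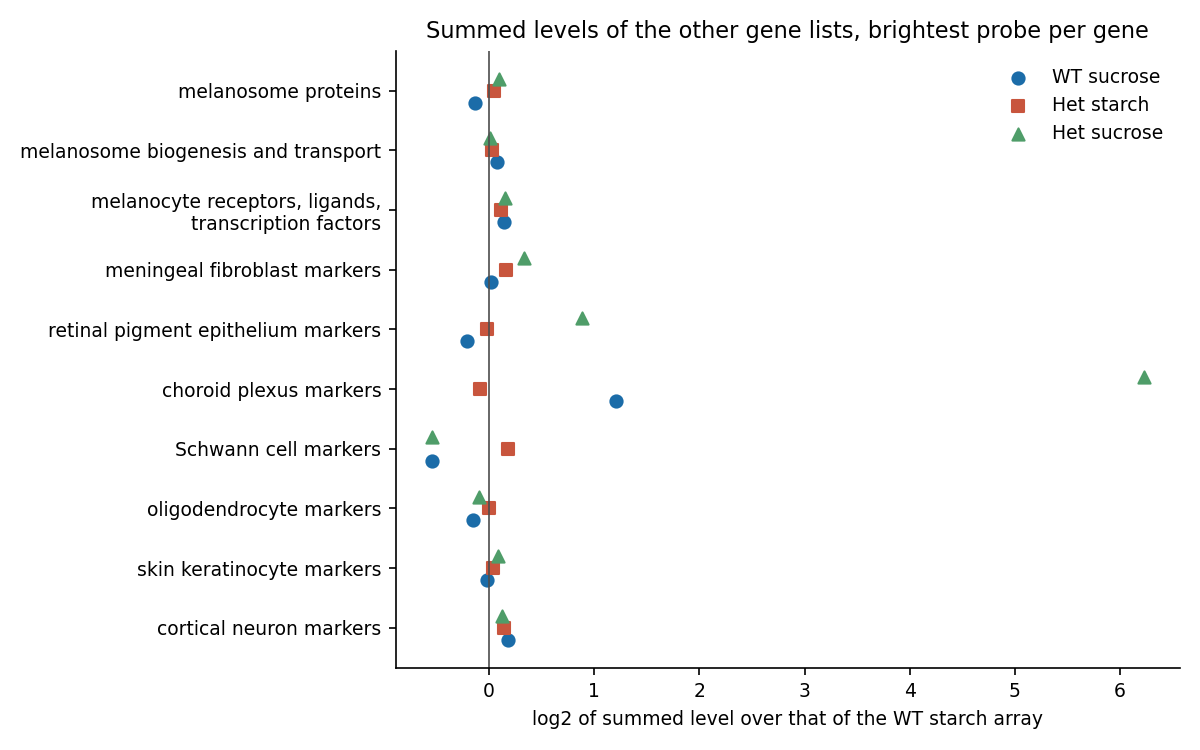
Summed level of each gene list, brightest probe per gene, as log2 of its ratio to the wild-type starch array (x axis) for the other 3 arrays. Choroid plexus markers stand far out in heterozygous sucrose mice (7050% against 94.0%), and in heterozygous starch mice (88.4%) they do not.

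Genes were ranked by how closely their levels followed the mean pattern of Mlana, Dct and Tyrp1 over the 4 arrays, as the Euclidean distance of centred log2 levels over 19166 genes measured on all arrays. The nearest was 1700024G13Rik, at a distance of 0.07, closer to the mean than Dct (0.32), Mlana (0.49) and Tyrp1 (0.80) were themselves. Its single probe (A_52_P625270, chr14:33189715-33189774) had 1.29%, 0.93%, 7.99% and 4.35%. Its wild-type signals of 23.0 and 17.7 units lie where the spot spread was 0.51, so the distance is finer than the spots resolve. The next genes lay further off, beginning with Gsta2, a glutathione S-transferase gene (1.18), Gm10639 (1.24) and the vomeronasal receptor gene Vmn2r114 (1.26). The Gsta2 and Gm10639 probes map to different places on chromosome 9, on opposite strands. Their sequences are near-identical, so whether their signals are independent is uncertain. Gm5087 (1.36), Vmn2r57 (1.48), the T-box factor gene Tbx21 (1.52), Morn3 (1.55), Gm11747 (1.55) and the phosphodiesterase subunit gene Pde6h (1.57) completed the 10. Both wild-type signals of Gsta2, Vmn2r114, Gm5087, Vmn2r57 and Gm11747 also lay at 10 to 30 units. For Gm5087, Morn3 and Pde6h, other probes of the gene did not show the high heterozygous starch signal. Among the other pigment genes Mitf ranked 494, Slc24a5 1536, Oca2 2439 and Tyr 18855. With 4 arrays, a pattern has few points, and the ranking is a description.

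**Figure D5:**
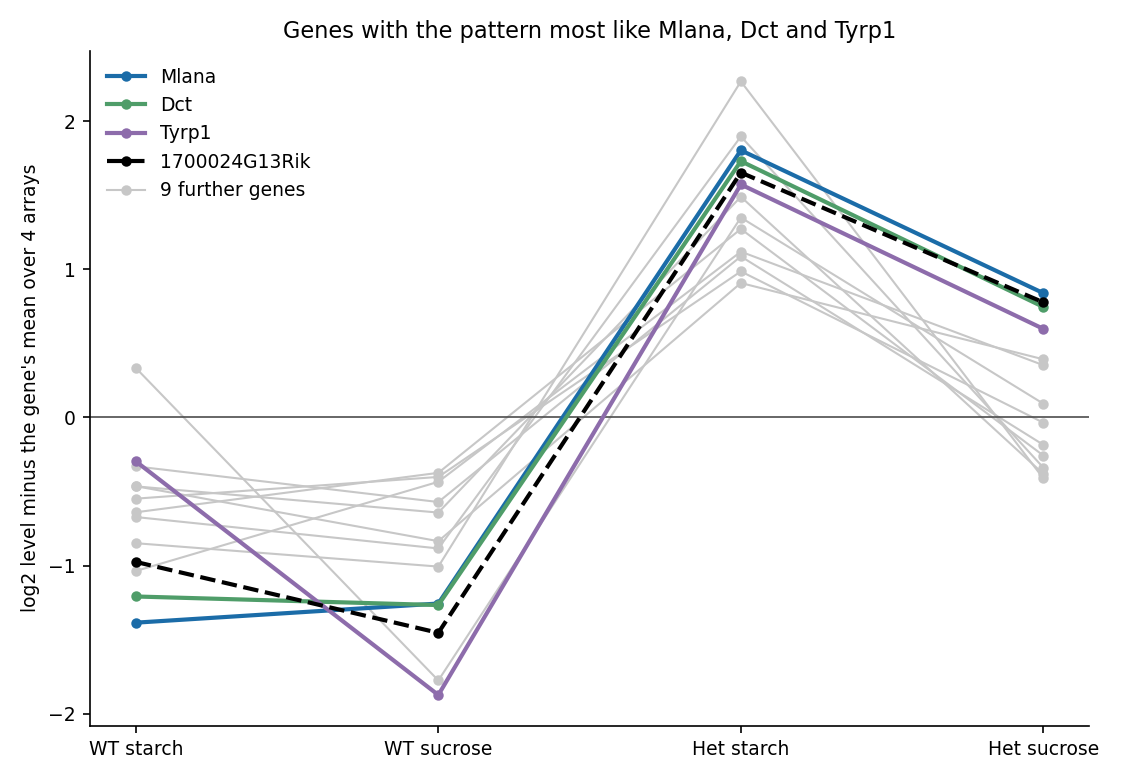
Log2 level minus the gene's mean over the 4 arrays (y axis) for Mlana, Dct, Tyrp1, the nearest gene 1700024G13Rik (dashed) and the 9 further genes of the ranking (grey). All are highest in heterozygous starch mice, and on each of the 4 arrays 1700024G13Rik lies between the lowest and the highest of Mlana, Dct and Tyrp1.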

How the data were processed

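Per the labels, RNA pools of 3 mice per group were labelled with Cy3 from 200 ng and hybridised to 1 array each. The deposited intensity values are processed signals of Agilent Feature Extraction 11.5.1.1, per the submitters' processing notes. Per the file headers, they are background-subtracted and detrended within each array. The authors also deposited 1 ratio per spot, which on comparison equals the processed signal over the array's 75th percentile. Probe coordinates are those of the files, on mm9. Promoter sequences and gene names come from RefSeq GRCm38.p6.

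From these, the processed signal was divided by the 75th percentile of its array and put on the log2 scale. Control and outlier spots were left out and spots averaged per probe. Arrays held 62976 spots, 59305 of them non-control (56605 probes), and none was saturated. A probe counted as measured where well above background on both arrays compared, or on all 4 for the interaction and the fit. A gene was read by its brightest probe. Differences of single arrays were counted at 2-fold. Diet was fitted with limma 3.58.1 (R 4.3.3), with Benjamini-Hochberg adjustment over all probes. The fit and the counts were tested on simulated data. With 1 pool per group, the p-values take the interaction as error and measure no spread between pools or animals.

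The members, lists and tests were chosen with earlier results of these data known. Named genes are all members, list genes past 2-fold or not well above background, a few further list genes chosen after their values were seen (Sox10, Kit, Pax3) or named as examples, and the 10 genes of nearest pattern. One marker gene and 1 probe sequence are not reported here. The motif TCATGTGCT was added after the promoters were read. Alternatives were scaling, background correction, the filter, spot flags, the authors' ratios, the fold threshold, averaging over probes and a trended prior.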

Additional observations from a re-analysis of the deposited data

Results flagged for a closer look

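The diet difference of Mlana had a small positive value in wild-type and a negative value in heterozygous mice. For probe A_55_P1953402 the log2 difference of sucrose minus starch was 0.13 in wild-type and -0.96 in heterozygous mice, an interaction of -1.0939. For probe A_51_P499623 it was 0.05 and -1.07, an interaction of -1.1147. With 1 array per group this difference was not tested, and both wild-type values were within the spot spread of 0.23. The interaction uses the same arrays whose genotype differences chose Mlana. Under normexp background correction the wild-type values were negative too, at -0.10 and -0.14, and the interactions were -0.70 and -0.78, so the opposite signs depend on that setting.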

How the results depend on the processing

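No paired analysis was possible because each group has 1 array. No member gene's value past 2-fold changed sign under any alternative. Of the recomputed counts, medians and diet-fit calls, 18 moved and 89 did not, a count being held to within 1.5 times its value and a median to the spot spread, with the 8 diet-fit counts at 0 throughout among the 89. Normexp background correction moved most: the counts past 2-fold were 0 in place of 3 for diet in either genotype and for the interaction, and 3 in place of 7 between heterozygous sucrose and wild-type starch mice. The share of all probes fell as well, to 0.443% for diet in wild-type and 0.541% in heterozygous mice. It was 0.846% for the interaction and 0.561% for both factors. Member medians under this correction were 0.14 (from 0.31) for genotype on starch, 0.60 (from 0.99) on sucrose and 0.36 (from 0.61) for both factors. Under it Mlana, Dct and Tyrp1 had genotype differences of 1.98, 2.56 and 1.22 on starch and 1.28, 1.72 and 1.28 on sucrose. With no filter on dim probes the counts were 8 (from 4) for genotype on starch and 6 (from 3) for diet in heterozygous mice. The interaction count was 6 (from 3). The share of all probes past the threshold rose as well, to 5.39% (from 1.02%), 5.27% (from 1.54%) and 9.5% (from 2.74%). Without that filter the medians were 0.69 for genotype on sucrose and 0.89 for both factors. The filter on all 4 arrays gave medians of 1.29 and 0.89 for these. Median scaling gave 5 probes for diet in heterozygous mice, against 1.5% of all probes. A threshold of 1.5-fold gave 6 there and 8 for the interaction, against 4.97% and 9.18% of all probes. Averaging over probes gave a median of 0.36 for both factors, and a Dct genotype difference of 1.02 on starch in place of 2.94. Depth does not apply to arrays, and signal over background limits Mc1r, Slc45a2, the Tyr probe A_51_P102311 and the dim Tyrp1 probes.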

Other observations

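Probe A_52_P176608, which the files name AF510652 and describe as Mitf, lay outside the gene names used. It was well above background on no array, with levels of 0.47%, 0.63%, 0.31% and 0.65% in wild-type starch, wild-type sucrose, heterozygous starch and heterozygous sucrose mice.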
